A study of Rattus norvegicus with 12 samples.

Results

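The genes described here are the chains of the integrins and laminins of the rat, taken as every gene whose RefSeq symbol begins with Itga, Itgb, Lama, Lamb or Lamc followed by the number or letter of a chain. The 27 genes reported were matched to 49 probes of the array, and 26 were tested, out of 34444 features tested in all. They comprise 6 laminin chains, 11 integrin chains of epithelium and stroma, 7 integrin chains of leukocytes, and 3 proteins that are not integrins but carry the name of the integrin chain they bind (Itgb1bp1, Itgb1bp2 and Itgb3bp). The 12 coding genes of the families that had no probe matched by RefSeq transcript were Itga11, Itga2, Itga2b, Itga3, Itga9, Itgav, Itgax, Itgb8, Lama2, Lama3, Lama4 and Lamb1, and they were not analysed here. Itgb1bp2 was above background on 1 of 12 arrays and was not tested.

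The rats were male Sprague-Dawley animals bought at 5 weeks of age, and RNA of their renal cortex was hybridised after 4 weeks of daily dosing. Rats received cisplatin by gavage at 3.75 mg/kg/day or water by gavage, and in the intravenous experiment cisplatin at 0.75 mg/kg/day or water by the same route. The intravenous dose is that of the sample labels, while the protocol text shared by all samples gives 3.75 mg/kg/day, so the sources disagree on it. Each of the 4 groups had 3 rats, each hybridised to its own 1-colour array. Route, experiment and, by the sample labels, dose change together, so their effects cannot be told apart. The samples are pieces of whole cortex, and a lower signal from fewer cells of a type cannot be told apart from less RNA per cell.

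Laminins are secreted trimers of an alpha, a beta and a gamma chain, and they form the sheet of the basement membrane on which epithelial cells rest. Integrins are membrane dimers of an alpha and a beta chain that bind laminins, collagens or proteins with an RGD motif outside the cell and link them to the cytoskeleton inside. In the kidney the tubule basement membrane is rich in laminin chains alpha 5, beta 1 and gamma 1, and the glomerular one in alpha 5, beta 2 and gamma 1. Lamb3 encodes a beta chain of the laminin of anchoring contacts in skin and other epithelia, and the integrin pair Itga6 and Itgb4 binds that laminin there. Cisplatin is a platinum drug that damages the proximal tubule.

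The signal of a gene is given throughout as log2 of its processed intensity minus the 75th percentile of that array, so a negative signal lies below that percentile and not below 0 intensity. The 75th percentile itself was 1387.4 to 1532.2 on the cisplatin arrays and 969.68 to 1054.8 on the water arrays, and 66.1% to 73.9% of probes were well above background on an array. Signals of 2 arrays of the same group correlated at 0.981 to 0.993 across probes, and those of different groups at 0.910 to 0.992. Gavage cisplatin replicate 1 lay on the slide of the gavage water arrays, gavage cisplatin replicates 2 and 3 lay on the slide of the intravenous water arrays, and the 3 intravenous cisplatin arrays filled a slide of their own. The intravenous effect and that slide therefore cannot be told apart. The summed signal of 6 proximal tubule markers was 69.7 to 151 in gavage cisplatin, against 956 to 1088 in gavage water, on a linear scale relative to the 75th percentile. It was 112, 322 and 374 in intravenous cisplatin, against 885 to 1020 in intravenous water, so the water arrays carried the markers of cortex at a high level and the cisplatin arrays carried less. Intravenous cisplatin replicate 1 lay within the gavage cisplatin range and stood apart from the other arrays of its group. It did so too for the sum of 4 distal nephron markers (8.21, against 30.5 and 48.7 for its group mates). Most of that gap was Umod (log2 signal -1.57, against 4.36 and 4.87). Slc12a1 and Calb1 were also lowest on replicate 1 of its group, while Slc12a3 was highest there (2.13, against 1.45 and 1.82).

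In gavage cisplatin against gavage water, 12 of the 26 tested genes were higher, 3 were lower and 11 did not pass (limma with Benjamini-Hochberg adjustment, adjusted p below 0.05), while 29.5% of all features were higher and 29.8% were lower. In intravenous cisplatin against intravenous water, 14 were higher, 4 were lower and 8 did not pass, against 26.4% of all features higher and 32.0% lower. The median log2 change of the 26 genes was 0.60 by gavage and 0.63 intravenously, where the medians of all features were 0.01 and -0.06. Scaling the arrays to their spike-in probes shifted the median of all features to 0.66 and 0.50. With it, 24834 of 34444 features were called in either direction by gavage and 21864 intravenously. With all features shifted, the counts of the 26 genes under this scaling are no result about these genes. They were 19 higher and 1 lower by gavage, and 21 higher and 0 lower intravenously. The 1 that stayed lower was Itga6 by gavage (-0.50, limma adjusted p = 0.0362). The other falls among these genes were called only relative to the other transcripts of the same array. Itgb3 passed the filter on dim probes through the gavage cisplatin arrays alone, and Itga10 through the intravenous water arrays alone. Itgam passed it through both cisplatin groups and neither water group.

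**Figure D1:**
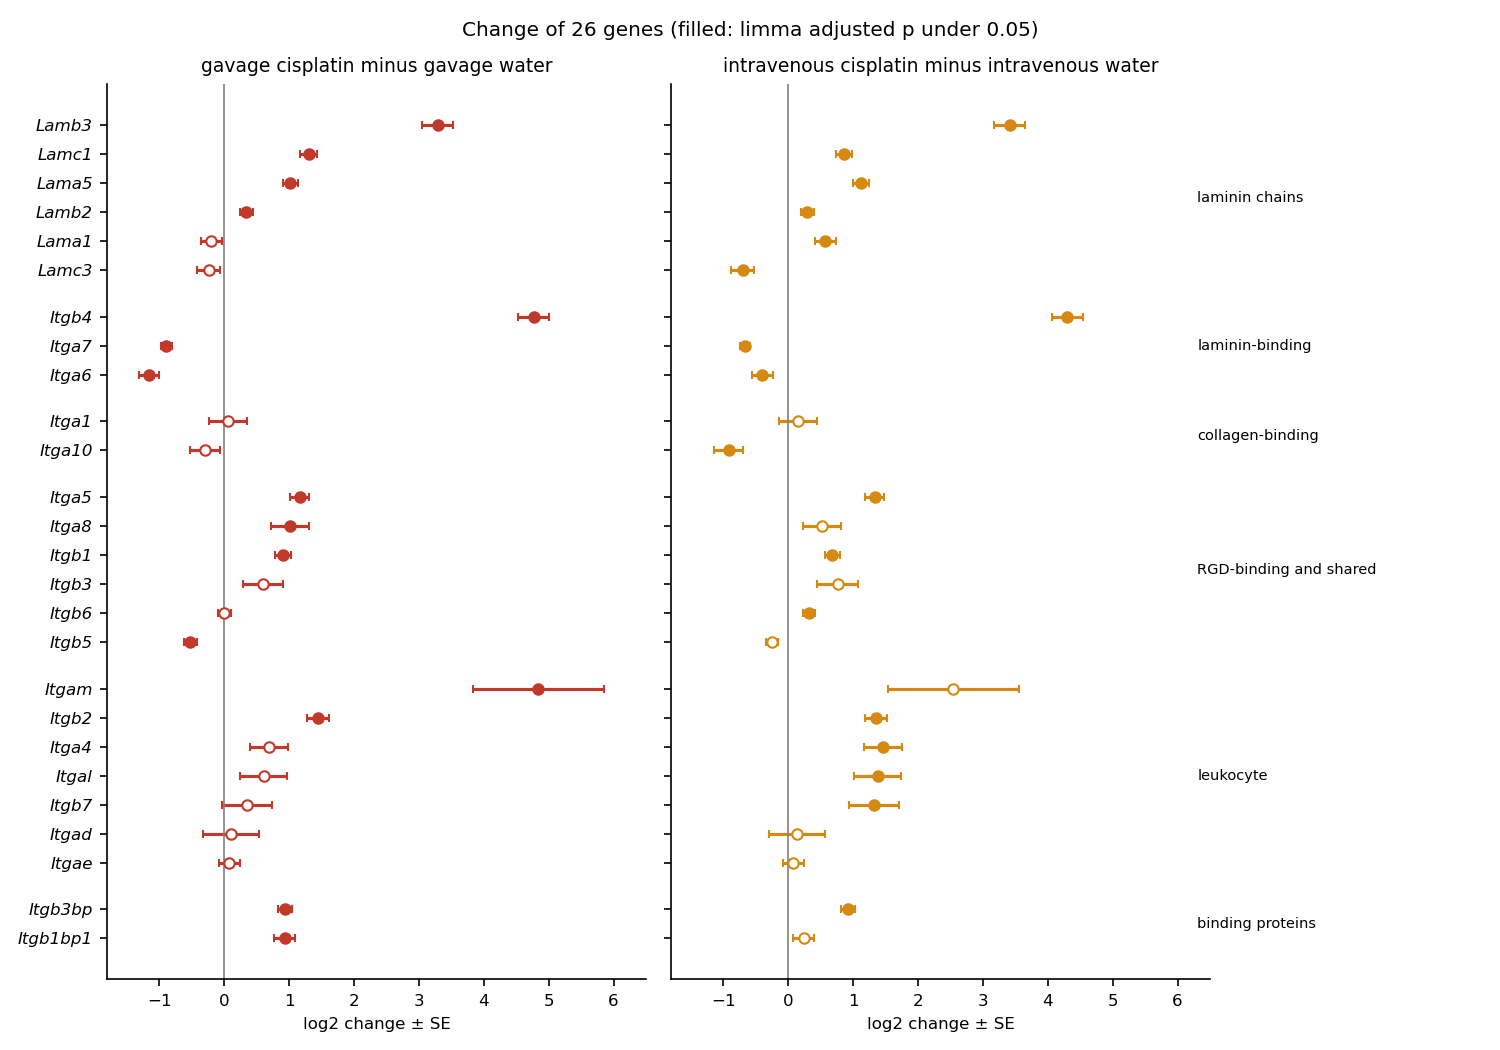
Log2 change of the 26 tested genes, with cisplatin minus water by gavage on the left and intravenously on the right. Points are limma estimates, bars are standard errors, filled points have an adjusted p below 0.05, and the genes are grouped by role; Itgb4 and Lamb3 lie between 3.29 and 4.77 on both sides.

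Of the laminin chains reported, Lamb3, the beta chain of the anchoring laminin, rose most. Lamb3 had a log2 signal of 1.71, 1.79 and 1.73 in gavage cisplatin, against -1.42, -1.31 and -1.93 in gavage water. It was at 1.25, 2.14 and 1.22 in intravenous cisplatin, against -1.65, -1.96 and -2.01 in intravenous water. The groups did not overlap, and intravenous cisplatin replicate 2 stood above the other cisplatin arrays. The change was 3.29 ± 0.24 by gavage (SE, 9.81-fold, limma adjusted p = 3.59e-06) and 3.41 ± 0.24 intravenously (10.6-fold, adjusted p = 5.70e-06). Of the 12610 named genes tested, 211 had a larger rise by gavage and 134 intravenously.

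The chains of the ordinary kidney basement membrane changed less. Lamc1, the gamma chain of most laminins, was at 3.19, 3.12 and 3.45 in gavage cisplatin, against 2.01, 2.00 and 1.86 in gavage water. It was at 3.10, 2.86 and 2.66 in intravenous cisplatin, against 2.04, 2.08 and 1.93 in intravenous water. All 6 cisplatin arrays were above all 6 water arrays, with changes of 1.30 ± 0.13 (2.46-fold, limma adjusted p = 1.73e-05) by gavage and 0.86 ± 0.13 (1.81-fold, adjusted p = 0.000308) intravenously. Lama5, the alpha chain of tubular and glomerular basement membrane, was at 3.43, 2.92 and 3.26 in gavage cisplatin, against 2.26, 2.08 and 2.21 in gavage water. It was at 3.17, 3.07 and 3.09 in intravenous cisplatin, against 2.09, 1.96 and 1.90 in intravenous water. Here too no cisplatin array fell within the water range, and the signal rose 2.03-fold by gavage (limma adjusted p = 6.89e-05) and 2.18-fold intravenously (adjusted p = 5.85e-05). Lamb2, the beta chain of the glomerular membrane, rose by small amounts, 1.27-fold by gavage (limma adjusted p = 0.0142) and 1.22-fold intravenously (adjusted p = 0.0309). The gavage call for Lamb2 was lost without gavage water replicate 2 or gavage cisplatin replicate 3, where the change was 0.29 and 0.25, and the intravenous call without any of 5 arrays (0.22 to 0.34 over the 12).

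Lama1, an alpha chain of early kidney development that persists in tubule membrane, was at -1.61, -1.58 and -1.57 in intravenous cisplatin, against -1.88, -2.46 and -2.15 in intravenous water. By gavage it was at -2.00, -1.75 and -2.11 in cisplatin, against -1.89, -1.51 and -1.85 in water. The intravenous groups were apart (1.49-fold higher, limma adjusted p = 0.0110) and the gavage groups overlapped (-0.20 ± 0.16, adjusted p = 0.297). All 3 intravenous cisplatin arrays lay within the gavage water range, and intravenous water minus gavage water was -0.41 for Lama1 (limma adjusted p = 0.287). Lamc3, a further gamma chain with a narrower distribution, was the laminin that passed as lower. It was at -4.60, -4.12 and -4.68 in intravenous cisplatin, against -3.69, -3.69 and -3.91 in intravenous water, and it was at -4.70, -4.19 and -4.25 in gavage cisplatin, against -3.99, -4.30 and -4.12 in gavage water. The intravenous groups did not overlap (change -0.70 ± 0.18, limma adjusted p = 0.00678), the gavage groups did (-0.24 ± 0.18, adjusted p = 0.269), and with spike-in scaling the intravenous change was -0.14 (adjusted p = 0.575). The experiment in which Lamc3 passed depended on the probe, since its second probe, above background on all 12 arrays, gave -1.05 by gavage (adjusted p = 0.0228) and -0.43 intravenously (adjusted p = 0.307). In all, 4 of the 6 laminin chains rose by gavage, and 5 rose and 1 fell intravenously. Of all features, 29.5% were higher and 29.8% lower by gavage, and 26.4% higher and 32.0% lower intravenously. The median log2 changes of the 6 were 0.68 and 0.71, against 0.01 and -0.06 over all features.

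**Figure D2:**
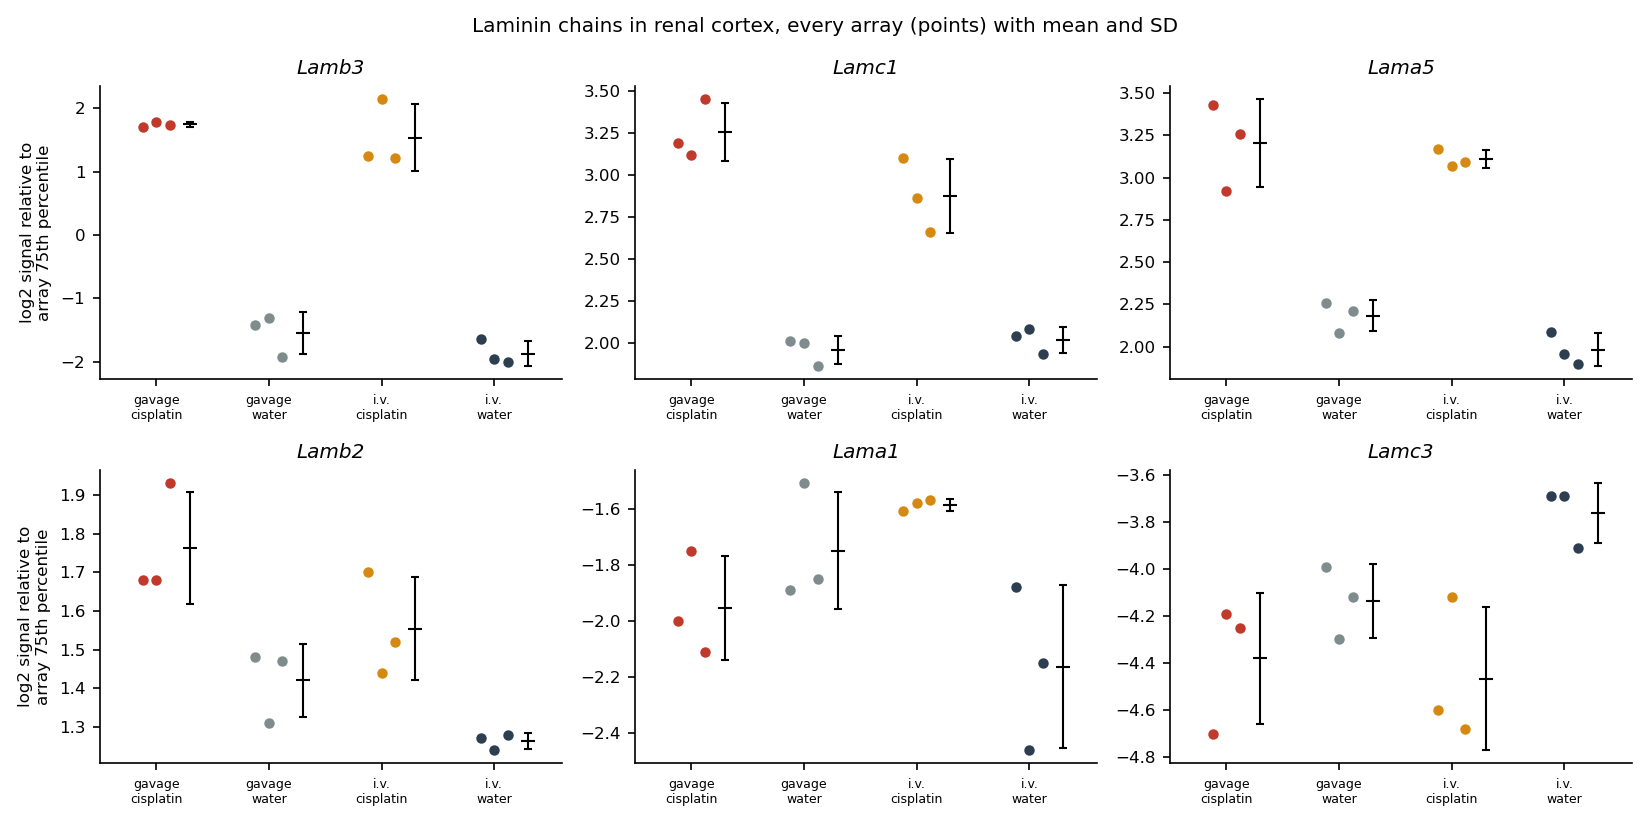
Log2 signal relative to the array's 75th percentile of 6 laminin chains on every array (i.v., intravenous); each panel has its own axis, which does not start at 0. Points are arrays, and the black marks give the mean and SD of 3 arrays; Lamb3 averaged 1.74 ± 0.04 in gavage cisplatin and -1.55 ± 0.33 in gavage water.

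In the RefSeq order of genes on assembly GRCr8, Lamc1 and Lamb3 lie on chromosome 13 with 802 genes between them. RefSeq promoter windows (GRCr8, 250 bases before to 50 bases after the gene start) were matched for 19 of the 27 genes. Windows of 3 laminin genes are printed because their genes rose in both experiments by different amounts. Capitals mark the SP1 GC box, searched as GGGCGG on both strands.
Lamb3, chr13:107362303-107362602, plus strand: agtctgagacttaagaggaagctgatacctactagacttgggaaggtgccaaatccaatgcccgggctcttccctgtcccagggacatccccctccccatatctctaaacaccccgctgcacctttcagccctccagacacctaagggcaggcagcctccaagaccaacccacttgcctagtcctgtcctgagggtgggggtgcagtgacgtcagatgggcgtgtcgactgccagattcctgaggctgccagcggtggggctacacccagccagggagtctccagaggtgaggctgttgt
Lama5, chr3:187695925-187696224, minus strand: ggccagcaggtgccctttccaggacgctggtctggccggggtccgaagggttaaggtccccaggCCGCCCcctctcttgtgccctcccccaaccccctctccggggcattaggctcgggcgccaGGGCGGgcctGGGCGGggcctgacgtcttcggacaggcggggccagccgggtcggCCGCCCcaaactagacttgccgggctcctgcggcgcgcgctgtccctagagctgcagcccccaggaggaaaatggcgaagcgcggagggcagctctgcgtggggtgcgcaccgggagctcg
Lamc1, chr13:68051937-68052236, minus strand: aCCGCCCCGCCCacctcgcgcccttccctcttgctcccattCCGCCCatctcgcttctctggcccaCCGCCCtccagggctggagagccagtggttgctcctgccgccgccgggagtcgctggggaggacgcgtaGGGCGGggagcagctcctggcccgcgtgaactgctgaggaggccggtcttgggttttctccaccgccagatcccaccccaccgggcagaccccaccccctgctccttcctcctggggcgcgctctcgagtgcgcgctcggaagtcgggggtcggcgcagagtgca
The GC box occurred 4 times in the window of Lama5, 5 times in that of Lamc1 and 0 times in that of Lamb3, and it was present in 7 of the 19 windows, against 34.9% of 27457 RefSeq promoters. The 7 genes were Itga5, Itgam, Itgb1, Itgb7, Lama5, Lamc1 and Lamc3, which include genes that rose and 1 that fell. The TEAD motif GGAATG was in 5 of the 19 windows (Itga10, Itga4, Itgb1, Itgb1bp1 and Lamc1) and in 13.9% of all promoters. The AP-1 motif TGANTCA was in 0 of the 19 and in 7.33% of all, and the NF-kB motif (GGG and TTTCC with any 2 bases between) was in 0 of the 19 and in 1.51% of all. All motifs were searched on both strands, and the letters describe these windows only.

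The laminin-binding integrins moved in opposite directions. Itgb4, the beta chain of the epithelial laminin receptor that anchors keratin filaments, was at 5.41, 5.21 and 5.35 in gavage cisplatin, against 0.63, 0.50 and 0.53 in gavage water. It was at 5.69, 4.74 and 4.53 in intravenous cisplatin, against 0.74, 0.63 and 0.66 in intravenous water. No arrays overlapped, and the intravenous cisplatin arrays were spread over more than 1 log2 unit. The change was 4.77 ± 0.24 by gavage (27.3-fold, limma adjusted p = 4.46e-07) and 4.30 ± 0.24 intravenously (19.8-fold, adjusted p = 1.22e-06), with 66 of 12610 named genes rising more in each comparison.

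Itga6, the alpha chain that pairs with Itgb4 and also with Itgb1, did not rise with it. It was at -0.81, -0.61 and -1.12 in gavage cisplatin, against 0.45, 0.17 and 0.32 in gavage water. In the intravenous experiment it was at -0.60, -0.58 and -0.21 in cisplatin, against -0.03, 0.06 and -0.22 in water. The gavage groups were apart, whereas intravenous cisplatin replicate 3 lay within the intravenous water range. Itga6 fell 2.23-fold by gavage (change -1.16 ± 0.16, limma adjusted p = 0.000131) and 1.32-fold intravenously (-0.40 ± 0.16, adjusted p = 0.0478). The intravenous call was lost when any of 8 of the 12 arrays was left out (change -0.53 to -0.33 over the 12), and with spike-in scaling the changes were -0.50 (adjusted p = 0.0362) by gavage and 0.16 (adjusted p = 0.481) intravenously. Endothelium also carries Itga6, and the summed signal of 6 endothelial markers was 16.3 to 17.7 in gavage cisplatin, against 28.9 to 31.6 in gavage water, with 4 of the 6 lower. It was 16.5 to 18.0 in intravenous cisplatin, against 24.2 to 30.7 in intravenous water, with 3 of the 6 lower. Of all features, 29.8% were lower by gavage and 32.0% intravenously. Kdr, the brightest of the 6, weighs most in the sum and changed by -1.10 by gavage and -0.92 intravenously. The endothelial markers Pecam1 (-0.07 and -0.05) and Cdh5 (-0.21 and -0.18) did not pass in either experiment. The part of endothelial RNA in the fall of Itga6 was not tested.

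Itga7, the laminin receptor chain best known from muscle, was at 2.08, 2.12 and 2.00 in gavage cisplatin, against 2.88, 2.95 and 3.05 in gavage water. It was at 2.17, 2.18 and 2.25 in intravenous cisplatin, against 2.85, 2.88 and 2.88 in intravenous water. The 6 cisplatin arrays lay in a narrow band below all 6 water arrays, at 1.85-fold lower by gavage (change -0.89 ± 0.08, limma adjusted p = 7.35e-06) and 1.59-fold lower intravenously (-0.67 ± 0.08, adjusted p = 6.17e-05). With spike-in scaling the changes of Itga7 were -0.24 (adjusted p = 0.0984) and -0.11 (adjusted p = 0.449).

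**Figure D3:**
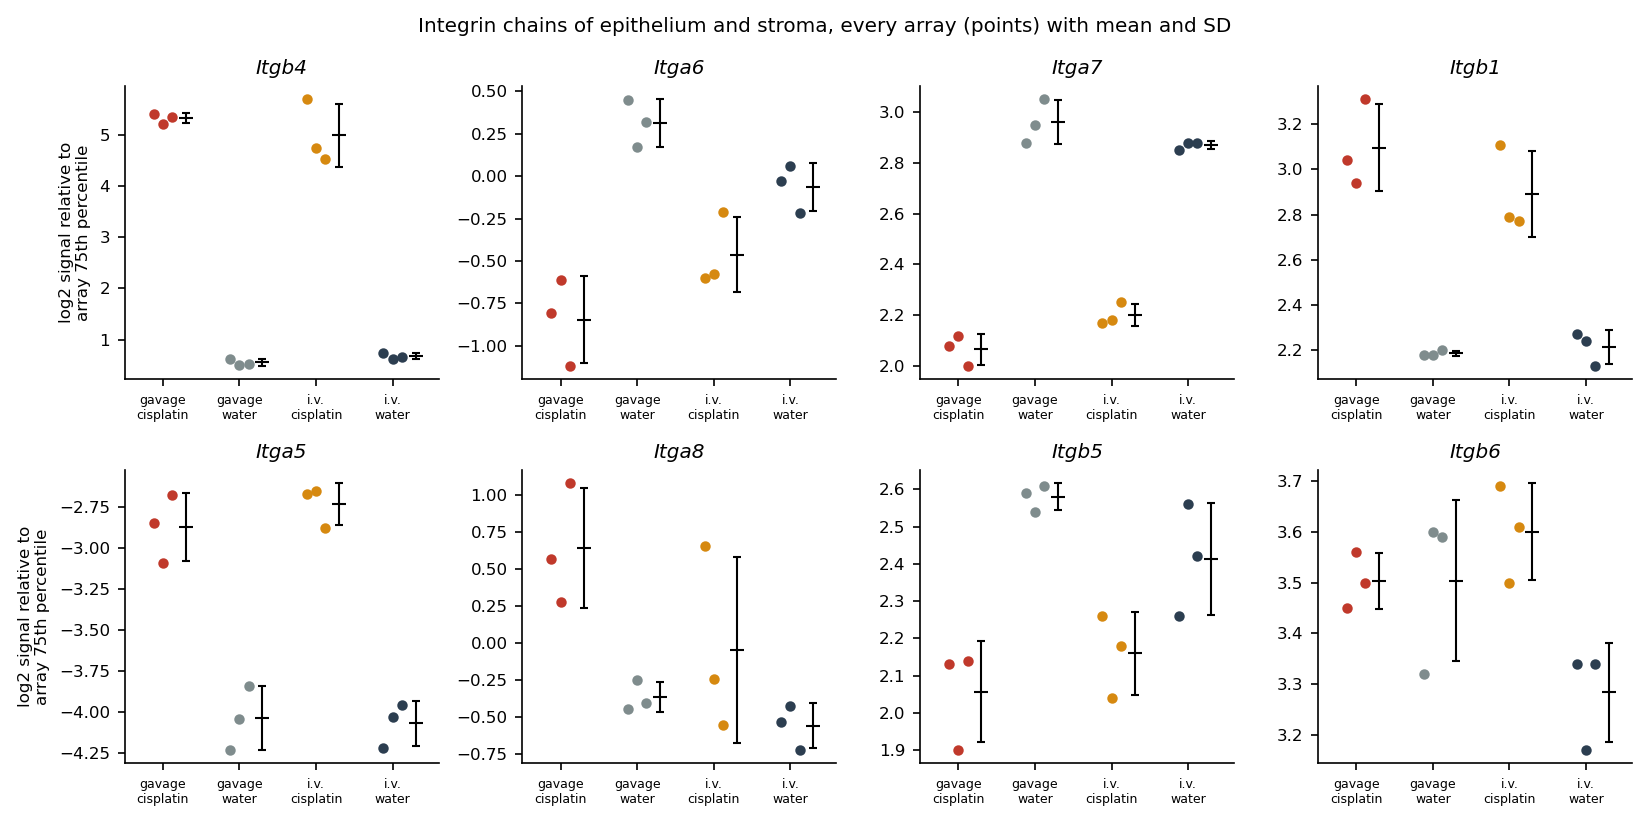
Log2 signal relative to the array's 75th percentile of 8 integrin chains of epithelium and stroma on every array (i.v., intravenous); each panel has its own axis, which does not start at 0. Points are arrays, and the black marks give the mean and SD of 3 arrays; Itgb4 averaged 5.33 ± 0.10 in gavage cisplatin and 0.56 ± 0.07 in gavage water.

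Among the integrin chains that bind fibronectin and other RGD proteins, 3 rose by gavage (Itga5, Itga8 and Itgb1), Itgb5 fell, and Itgb3 and Itgb6 did not pass. Of all features, 29.5% were higher and 29.8% lower by gavage, and so few chains allow no statement about the class. Itga5, the alpha chain of the main fibronectin receptor, was at -2.85, -3.09 and -2.68 in gavage cisplatin, against -4.23, -4.04 and -3.84 in gavage water. It was at -2.67, -2.65 and -2.88 in intravenous cisplatin, against -4.22, -4.03 and -3.96 in intravenous water. Both pairs of groups were apart, by 2.24-fold by gavage (1.16 ± 0.14, limma adjusted p = 5.87e-05) and 2.52-fold intravenously (1.33 ± 0.14, adjusted p = 3.97e-05). Itgb1, the beta chain shared by most integrins of laminin, collagen and fibronectin, was at 3.04, 2.94 and 3.31 in gavage cisplatin, against 2.18, 2.18 and 2.20 in gavage water. It was at 3.11, 2.79 and 2.77 in intravenous cisplatin, against 2.27, 2.24 and 2.13 in intravenous water. Itgb1 was thus above the water range on all 6 cisplatin arrays, 1.88-fold higher by gavage (limma adjusted p = 0.000111) and 1.60-fold higher intravenously (adjusted p = 0.000881).

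Itga8, a partner of Itgb1 in mesangium and in kidney development, was at 0.57, 0.28 and 1.08 in gavage cisplatin, against -0.44, -0.25 and -0.40 in gavage water. It was at 0.66, -0.24 and -0.55 in intravenous cisplatin, against -0.53, -0.42 and -0.72 in intravenous water. The gavage groups were apart (2.01-fold higher, limma adjusted p = 0.0116), while intravenous cisplatin replicate 3 lay among the water arrays (change 0.52 ± 0.29, adjusted p = 0.146). The intravenous change of Itga8 was 0.16 (adjusted p = 0.536) without intravenous cisplatin replicate 1 and 0.77 (adjusted p = 0.0422) without replicate 3, and with slide as a fixed block the gavage change was 0.93 (adjusted p = 0.102). The summed signal of 6 markers of mesangium and fibroblasts was 96.7, 76.9 and 112 in gavage cisplatin, against 25.1, 19.1 and 18.2 in gavage water, with all 6 higher. It was 102, 71.3 and 56.6 in intravenous cisplatin, against 23.3, 21.2 and 16.2 in intravenous water, with 5 of the 6 higher. Of all features, 29.5% were higher by gavage and 26.4% intravenously. The stromal sum was higher in both experiments, as were Itga5 and Itgb1, while Itga8 passed by gavage alone. The part of stromal RNA in the rises of these 3 chains was not tested.

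Itgb5, an RGD-binding chain of many cell types, fell 1.44-fold by gavage (-0.52 ± 0.10, limma adjusted p = 0.00165), and its intravenous change was -0.25 ± 0.10 (adjusted p = 0.0586). With spike-in scaling the changes of Itgb5 were 0.13 (adjusted p = 0.246) and 0.31 (adjusted p = 0.0196). Itgb6, the epithelial chain that activates latent TGF-beta, rose 1.25-fold intravenously (0.32 ± 0.10, limma adjusted p = 0.0192), a call lost without intravenous water replicate 2 (0.26) or intravenous cisplatin replicate 1 (0.27), and its gavage change was 0.00 ± 0.10 (adjusted p = 0.987). Itgb3, the beta chain of the platelet fibrinogen receptor, lay above water on every cisplatin array of both experiments and did not pass by its brightest probe. Its changes were 0.60 ± 0.31 (adjusted p = 0.116) by gavage and 0.76 ± 0.31 (adjusted p = 0.0538) intravenously, where 0 of 3 water arrays were well above background. Its second probe, well above background on 0 of 3 gavage water arrays, passed as higher by gavage (adjusted p = 0.0138) and did not intravenously (adjusted p = 0.233). That probe passed the filter only through gavage cisplatin, the group in which it was highest, so its call supports nothing. Of the platelet markers, Pf4 was higher and Gp9 lower in both experiments.

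By their brightest probes, neither of the collagen-binding chains passed as higher. Itga1, the collagen receptor chain of mesangium and other stroma, had changes of 0.06 ± 0.29 by gavage (limma adjusted p = 0.862) and 0.15 ± 0.29 intravenously (adjusted p = 0.678). Itga10, a collagen receptor chain best known from cartilage, was at -5.51, -5.82 and -5.50 in intravenous cisplatin, against -4.65, -4.73 and -4.69 in intravenous water. By gavage it was at -5.88, -5.16 and -5.13 in cisplatin, against -5.54, -5.04 and -4.73 in water. The intravenous groups were apart (-0.92 ± 0.23, limma adjusted p = 0.00663) and the gavage groups overlapped (-0.29 ± 0.23, adjusted p = 0.311). The probe was well above background on 1 of 3 intravenous cisplatin arrays and on all 3 intravenous water arrays, and the intravenous change was -0.36 (adjusted p = 0.264) with spike-in scaling. Since Itga10 passed the filter only through the group in which it was highest, its call supports nothing, and without it 3 genes were lower intravenously. Over the 11 integrin chains of epithelium and stroma, 4 rose, 3 fell and 4 did not pass in each experiment, with Itga10 among the intravenous falls. The median changes were 0.06 by gavage and 0.32 intravenously. The shares that rose and fell are near those of all features (29.5% higher and 29.8% lower by gavage, 26.4% and 32.0% intravenously).

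Of the 7 integrin chains of leukocytes, 2 rose by gavage, a share near the 29.5% of all features, 4 rose intravenously, against 26.4% of all features, and none fell in either. Itgb2, the beta chain common to a family of leukocyte integrins, was at 0.34, 0.40 and 0.22 in gavage cisplatin, against -0.91, -0.99 and -1.50 in gavage water. It was at 0.56, 0.89 and 0.46 in intravenous cisplatin, against -0.76, -0.87 and -0.53 in intravenous water. Its groups were apart in both experiments, 2.74-fold by gavage (limma adjusted p = 5.52e-05) and 2.56-fold intravenously (adjusted p = 0.000123).

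Itgam, the myeloid partner of Itgb2, was at -1.24, -1.71 and -3.12 in gavage cisplatin, against -6.74, -7.92 and -5.93 in gavage water. It was at -1.36, -2.75 and -3.46 in intravenous cisplatin, against -7.31, -4.85 and -3.02 in intravenous water. The gavage groups were apart (limma adjusted p = 0.00215), with 0 of 3 water arrays well above background, so the rise is given as a bound, 12.9-fold. Over all settings run the gavage change was 2.08 to 5.62 on the log2 scale, so the bound applies only to the processed intensities used here. Itgam passed the filter only through the cisplatin groups, in which it was higher, so its call adds no support to the counts of genes that rose by gavage. The bound is the mean of the bright group over the dimmest probe well above background on each dim array, or the gene's own signal there where that is higher. The intravenous groups overlapped (2.54 ± 1.01, limma adjusted p = 0.0528). The intravenous change of Itgam was 1.41 without intravenous water replicate 1 and 3.56 without intravenous water replicate 3 (adjusted p = 0.0106).

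Itga4, which pairs with Itgb1 or Itgb7 on lymphocytes and monocytes, was at -2.42, -1.55 and -1.62 in intravenous cisplatin, against -3.80, -3.19 and -3.00 in intravenous water. By gavage it was at -1.84, -2.28 and -2.78 in cisplatin, against -2.77, -3.17 and -3.04 in water. The intravenous groups were apart (2.76-fold higher, limma adjusted p = 0.00229), and the gavage groups met at their edges (0.69 ± 0.30, adjusted p = 0.0735). Without gavage cisplatin replicate 3 the gavage change of Itga4 was 0.93 (adjusted p = 0.0308), and with slide as a fixed block it was 1.15 (adjusted p = 0.0408).

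Itgal, the lymphocyte partner of Itgb2, was at -3.75, -2.97 and -3.02 in intravenous cisplatin, against -5.01, -5.08 and -3.78 in intravenous water. By gavage it was at -3.79, -4.02 and -4.50 in cisplatin, against -4.73, -4.39 and -5.02 in water. Intravenous water replicate 3 came close to the cisplatin arrays and the gavage groups overlapped; Itgal rose 2.60-fold intravenously (limma adjusted p = 0.00808), and its gavage change was 0.61 ± 0.36 (adjusted p = 0.170). Itgb7, a lymphocyte homing chain, rose 2.49-fold intravenously (limma adjusted p = 0.0151), a call lost without intravenous water replicate 1 (1.13) or intravenous cisplatin replicate 2 (1.02), and its gavage change was 0.35 ± 0.39 (adjusted p = 0.468). Itgad and Itgae, chains of macrophage and of intraepithelial lymphocyte integrins, had changes of 0.08 to 0.13 and did not pass. The intravenous change of Itgad was 0.75 (adjusted p = 0.00902) without intravenous cisplatin replicate 1 and -0.34 (adjusted p = 0.454) without replicate 2.

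Markers of macrophages were higher beside these genes in both experiments, and markers of lymphocytes intravenously. The summed signal of 8 macrophage markers was 49.8, 33.6 and 64.8 in gavage cisplatin, against 17.7, 19.7 and 20.3 in gavage water, and 7 of the 8 were higher. In the intravenous experiment it was 35.0, 48.5 and 34.5 in cisplatin, against 18.4, 25.3 and 28.9 in water, and 5 were higher. Of all features, 29.5% were higher by gavage and 26.4% intravenously. Cd163 was not well above background in either water group. It passed the filter only through the cisplatin groups, in which it was higher, so its calls add no support to these counts. C1qb, the brightest of the 8, weighs most in the sum, and it did not pass intravenously (0.56, limma adjusted p = 0.0898). The summed signal of 7 lymphocyte markers was 0.831, 2.15 and 2.28 in intravenous cisplatin, against 0.582, 0.835 and 0.724 in intravenous water, with 4 higher (Cd3e, Cd3g, Cd2 and Cd8a). By gavage it was 1.04, 0.972 and 0.953 in cisplatin, against 1.16, 0.658 and 0.740 in water, with 0 of the 7 called. Intravenous cisplatin replicate 1 was the array with few lymphocyte markers, and it was also the lowest intravenous cisplatin array for Itga4, Itgal and Itgb7. No neutrophil marker was called in either experiment. The summed signal of 4 general leukocyte markers was 21.7 to 29.0 in gavage cisplatin, against 14.1 to 17.3 in gavage water, and 23.4 to 41.8 in intravenous cisplatin, against 12.4 to 18.2 in intravenous water. The sums do not show all 4 alike: Ptprc and Laptm5 rose in both experiments and Coro1a intravenously, while Cd52 fell 8.96-fold by gavage (limma adjusted p = 0.000173) and 4.33-fold intravenously (adjusted p = 0.00247). The part of leukocyte number in the rise of these chains was not tested.

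**Figure D4:**
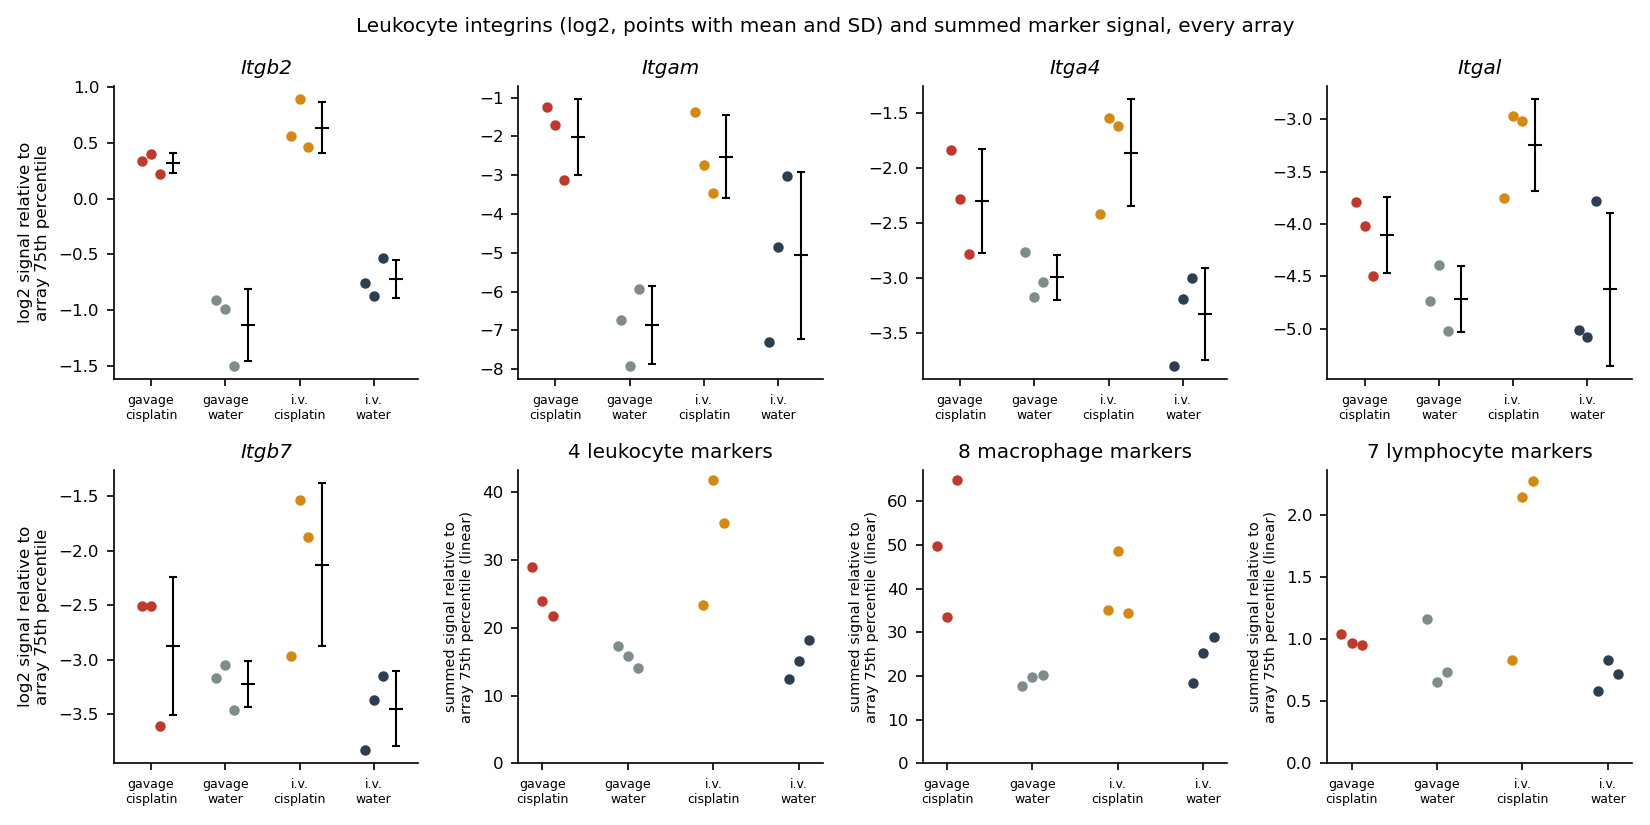
Log2 plots of 5 leukocyte integrin chains (log2 signal relative to the array's 75th percentile, with mean and SD of 3 arrays) and the summed linear signal of leukocyte, macrophage and lymphocyte markers on every array (i.v., intravenous). Intravenous cisplatin replicate 1 has a lymphocyte marker sum of 0.831, and the other intravenous cisplatin arrays have 2.15 and 2.28.

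Of the proteins named for the chain they bind, Itgb3bp, which is also a centromere protein, rose 1.92-fold by gavage (limma adjusted p = 6.15e-05) and 1.89-fold intravenously (adjusted p = 0.000103). Itgb1bp1, a cytoplasmic regulator of Itgb1, rose 1.91-fold by gavage (limma adjusted p = 0.000543), and its intravenous change was 0.24 ± 0.16 (adjusted p = 0.205). Itgb1bp1 was at 1.08, 1.39 and 1.43 in gavage cisplatin, against 0.45, 0.44 and 0.22 in gavage water, and at 1.25, 0.75 and 0.65 in intravenous cisplatin, against 0.63, 0.67 and 0.63 in intravenous water. Intravenous cisplatin replicate 1 was as high as the gavage cisplatin arrays, and the other intravenous cisplatin arrays were near water.

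Several genes were measured by more than 1 probe, which allows the change of the brightest probe to be set beside those of the others. The second probe of Itgb4 changed by 5.19 by gavage and 4.78 intravenously, and that of Lamb3 by 3.26 and 3.44. The dimmest probe of Lamb3 was well above background on all 6 cisplatin arrays and on 0 of 6 water arrays. It passed the filter only through the groups in which it was higher, so it adds no support and no size is given. The second probe of Itga6 gave -1.09 by gavage and -0.32 intravenously, where it did not pass (limma adjusted p = 0.200). The second probe of Itgb5 gave -0.89 by gavage and -0.65 intravenously (adjusted p = 0.000231), where the brightest did not pass. The dimmer probes of Itga10 had higher means in gavage cisplatin than in gavage water (-4.88 against -5.93, and -5.67 against -7.09), opposite to the brightest. They were well above background on 6 and 3 of 12 arrays and on 1 and 0 of 3 gavage water arrays, so no size is given, and all 3 probes of Itga10 lie near background.

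**Figure D5:**
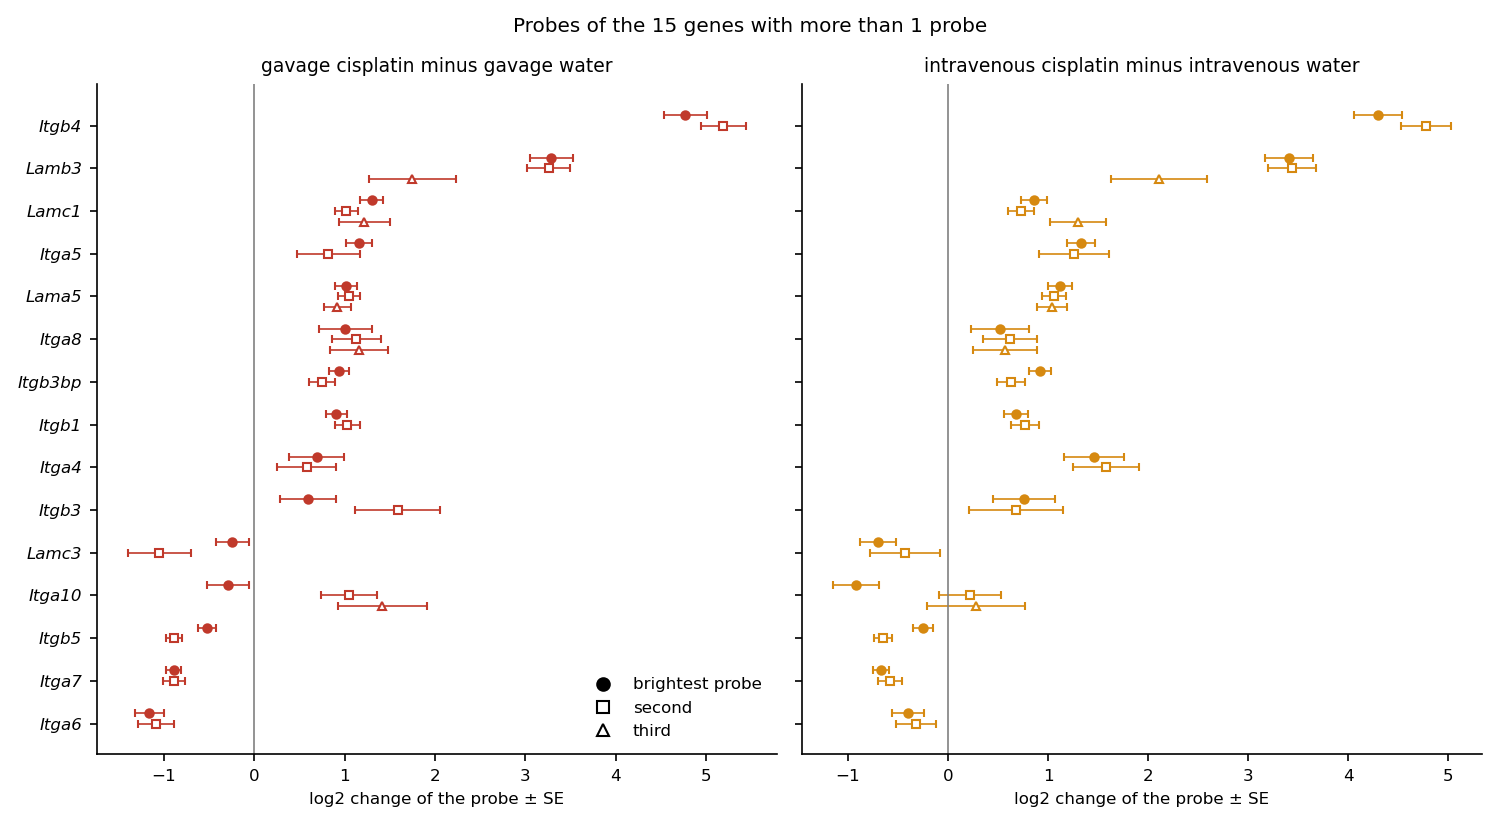
Log2 change with standard error of each tested probe of the 15 genes with more than 1 probe, cisplatin minus water by gavage on the left and intravenously on the right. Filled circles are the brightest probe, squares the second and triangles the third; those of Itga10, all near background, lie on both sides of 0.

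Genes around these receptors were counted from lists of known ligands, partners and adaptors, beside 29.5% higher and 29.8% lower among all features by gavage, and 26.4% and 32.0% intravenously. Of 13 ligands, or chains of ligands, of RGD-binding integrins, 10 rose and 1 fell by gavage, and 9 rose and 1 fell intravenously. Their median changes were 2.45 and 2.00, and not every gene of this list encodes an RGD motif. The fibrinogen chain Fgg, counted among the rises, passed the filter only through the cisplatin groups, so its calls add no support to these counts. The ligands that rose included the fibrinogen chain Fgb (5.32 by gavage and 5.28 intravenously) and the matrix protein osteopontin, Spp1 (4.81 and 4.89). Fibronectin, Fn1 (3.33 and 2.56), and the matrix signalling protein Ccn1 (2.50 and 2.00) rose too, while Egfl6 fell by 3.19 and 2.94 on the log2 scale. Of 10 other basement membrane components, 7 rose and 1 fell by gavage, and 6 rose and 1 fell intravenously. The collagen chains Col15a1 (3.59 and 3.33) and Col18a1 (2.33 and 2.00) rose, and Col4a4, a collagen chain of the glomerular membrane, fell by 2.70 by gavage and 1.89 intravenously. The summed signal of 5 podocyte markers was 15.9 to 18.9 in gavage cisplatin, against 28.3 to 32.9 in gavage water, and 17.5 to 18.7 in intravenous cisplatin, against 24.0 to 26.9 in intravenous water, with 4 of the 5 lower in each experiment. The part of podocyte RNA in the fall of Col4a4 was not tested.

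Of 10 other laminin receptors and their partners, 7 rose and 2 fell in each experiment. Plec, which links Itgb4 to keratin filaments, rose by 2.27 by gavage and 2.04 intravenously on the log2 scale. The tetraspanin Cd151, a partner of laminin-binding integrins, rose by 1.30 and 1.15, its relative Cd81 by 1.13 and 1.26, and the proteoglycan Sdc1 by 1.91 and 1.54. Dystroglycan, Dag1, a laminin receptor that is no integrin, fell by 0.39 by gavage and 0.41 intravenously. Of 29 adhesion adaptors, 15 rose and 5 fell by gavage, and 14 rose and 3 fell intravenously, and the median changes were 0.23 and 0.16. Those that rose included the focal adhesion proteins Tes (2.37 and 2.30) and Vasp (1.49 and 1.60) and the actin crosslinkers Flna (3.00 and 2.34) and Actn1 (2.12 and 1.98). Of 7 ligands of leukocyte integrins, 3 rose by gavage and 4 intravenously, among them Icam1, the ligand of Itgal and Itgam with Itgb2 (1.58 and 1.87), and the junction protein Jam3 (2.09 and 2.02).

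The difference between the effects in the 2 experiments was tested directly, as the intravenous effect minus the gavage effect. It was called for 0 of the 26 genes (limma, 5 at an unadjusted p below 0.05), against 1.20% of all features. The lowest adjusted p was 0.113, for Lama1 (0.77) and Itga6 (0.76). For Itgb4 the difference was -0.46 (adjusted p = 0.478) and for Lamb3 0.11 (adjusted p = 0.882). The difference of Itgam was -2.30 (adjusted p = 0.404), and those of Itga4, Itgal and Itgb7 were 0.77 to 0.97 (adjusted p 0.350 to 0.436), so the calls made for these chains in 1 experiment only do not show that the experiments differ. Intravenous water minus gavage water was called for 0 of the 26 genes (4 at an unadjusted p below 0.05, lowest adjusted p = 0.287) and for 0.00% of all features. The 4 were Lama1 (-0.41), Itga6 (-0.37), Itgb6 (-0.22) and Itgb2 (0.41). The differences between experiments given for Lama1 and Itga6 include these differences between their water groups.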

How the data were processed

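The authors deposited 1 Agilent Feature Extraction file per array (version 10.7.1.1, per the file headers), with a processed intensity, a median signal and flags for each spot, and a table of processed values. The deposited table holds a linear ratio of each probe's signal to an array constant, and its values were used as an alternative. The file headers list statistics of spatial detrending and of a background-subtracted signal, and the labels give no further step.

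Intensities were taken as log2 minus the 75th percentile of the array. The 1439 control spots were left out, as were 82 spots the scanner marked as uneven. Transcript accessions of 28206 of 61537 probes were matched to 1 rat gene symbol in RefSeq (GRCr8), and 33331 matched none. The probe with the highest mean over 12 arrays stood for a gene, and a feature was tested if well above background on all 3 arrays of a group. No coordinates of the array's own design were used.

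Limma 3.58.1 (R 4.3.3) was fitted to 4 group means over 12 arrays, with 8 residual degrees of freedom and Benjamini-Hochberg adjustment over 34444 features. Tests were two-sided and were checked on simulated data. Precision is limited by 3 arrays per group, and the series' design text calls them biological replicates. The files hold no mean-signal column, so the normexp alternative used the median signals. Other alternatives changed the normalization, filter, probe choice, slide or replicate block, array weights and each array in turn.

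All measured members could be named. Values on every array were given for the 4 largest called rises and the 3 largest called falls of each class of chains, and for Itgb1bp1, chosen after its values were seen. Up to 4 genes of each other list were chosen by smallest p, and Egfl6 and Dag1, which fell, were added after their values were seen. The members and lists were chosen with earlier results of these data known. Replicate numbers did not pair the samples. One gene that meets the rule is not reported here and is in none of the counts of members.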

Additional observations from a re-analysis of the deposited data

How the results depend on the processing

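Rises of Itgb4, Lamb3, Lamc1, Lama5, Itgb1, Itgb2 and Itgb3bp passed in both experiments under every alternative run. Counts that moved by over 1.5 times came from few settings. With spike-in scaling, 19 genes were higher and 1 lower by gavage and 0 lower intravenously. That scaling called 24834 of 34444 features in either direction by gavage and 21864 intravenously. With normexp background, 5 were lower by gavage, and with the second brightest probe 2 were lower intravenously. The difference between experiments was called for 1 gene with array weights (Itgb1bp1, -0.81, adjusted p = 0.0273). Over the fits without 1 array it was called for 0 to 2 genes, with Itgb1bp1 (-0.87, adjusted p = 0.0262) and Itgb4 (-0.82, adjusted p = 0.0223) called without intravenous cisplatin replicate 1. The sign turned for Itga10 by gavage with the mean of all probes (0.73) and the second brightest probe (1.05), and intravenously with the second brightest probe (0.22). Spike-in scaling raised the change of each gene by about 0.65 by gavage and 0.56 intravenously. With that shift the sign turned for Itgb5 (0.13) by gavage and for Itga6 (0.16) and Itgb5 (0.31) intravenously. Itgb6 by gavage moved from 0.00 to 0.65. With the mean of all probes, Itgb3 (1.09, adjusted p = 0.00587) and Lamc3 (-0.93, adjusted p = 0.00300) passed by gavage. The mean for Itgb3 takes in the probe that was well above background on 0 of 3 gavage water arrays, so its call supports nothing. The cause of the turns of Itga10 and of the calls of Itgb3 and Lamc3 was not tested. With slide as a fixed block, 11 genes were higher and 4 lower by gavage; that fit rests on gavage cisplatin replicate 1, which is assumed to vary like the others, and it lost Itga8 (0.93, adjusted p = 0.102) and Lamb2 (0.25, adjusted p = 0.167) and gained Itga10 (-0.77, adjusted p = 0.0355) and Itga4 (1.15, adjusted p = 0.0408). The brightest probe of Itga10 passed the filter only through intravenous water, so its call in that fit supports nothing. The fit with slide as a fixed block could not be run for the intravenous effect. Deviations of same-numbered samples correlated at -0.108 to 0.062, so the numbers are no pairing; with the replicate block, 13 were higher and 3 lower by gavage, and 13 higher and 3 lower intravenously. Genes near background (Itgam, Itga10 and Itgb3) have the least certain sizes.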
